A study of Mus musculus with 4 samples.

Results

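The expression of 10 genes of MHC class I antigen presentation was followed in follicular B (FOB) cells of mice with Hnrnpf intact or deleted in B cells. Hnrnpf encodes hnRNP F, an RNA-binding protein that takes part in pre-mRNA splicing. The genes were chosen by symbol from the deposited gene table: H2-K1, H2-D1, H2-T23, B2m, Tap1, Tap2, Tapbp, Psmb8, Psmb9 and Nlrc5. All 10 were found among the 55401 genes of the table, and all 10 were among the 14123 genes with enough reads to be tested.

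The cells came from the spleens of C57BL/6 mice whose age was given as 7 weeks, and were sorted by flow cytometry as B220+CD93-CD23highCD21low. WT mice were Hnrnpf fl/fl without Cre, and Hnrnpf bKO mice were Hnrnpf fl/fl with 1 copy of a Cre allele active in B lineage cells, so both genotypes carried the floxed Hnrnpf alleles and only the Hnrnpf bKO mice carried Cre. There were 2 RNA-seq libraries of each genotype. The presence of the Cre allele therefore cannot be told apart from the loss of hnRNP F in the comparison. Whether a library held the cells of 1 mouse or of several was not given in the sources used here, so the p-values measure only the spread between these libraries, which may be technical.

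Class I molecules carry short peptides from inside the cell to its surface, where CD8 T cells inspect them. Proteins are cut by the proteasome, in lymphocytes largely by the immunoproteasome, whose inducible catalytic subunits include Psmb8 and Psmb9. The peptides are pumped into the endoplasmic reticulum by the Tap1-Tap2 transporter, and tapasin (Tapbp) holds the transporter beside an empty class I molecule. That molecule is a heavy chain, such as H2-K1 or H2-D1, bound to the light chain beta-2 microglobulin (B2m), and Nlrc5 is the transactivator that switches on most of these genes together.

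The 4 libraries held between 15698567 and 18908963 counted read pairs. Hnrnpf, the deleted gene, had 5780 and 6634 counts with the gene intact in WT, against 1167 and 1194 after its deletion, a log2 fold change of -2.32 (SE 0.062, adjusted p = 1.05e-10, edgeR quasi-likelihood test with Benjamini-Hochberg adjustment over the 14123 genes, used for every adjusted p here). Hnrnpf transcript thus remained at 0.20 of its WT level. The paper proposes that some FOB cells escape the deletion, and whether such cells gave the remaining counts was not tested. The 7 follicular B cell markers examined were all detected, with summed levels of 12220 to 12550 CPM (counts scaled to the library total) in WT and 12220 to 12290 CPM in Hnrnpf bKO. The CPM of a single tested gene was also scaled by the normalization factors of edgeR. Single follicular markers were called in both directions, Fcer2a (log2 fold change 0.22) and Ighd (0.28) higher, and Ms4a1 (-0.29) and Pax5 (-0.20) lower. Myeloid markers, 7 genes, summed to 16.8 to 25.3 CPM in WT and 27.6 to 37.2 CPM in Hnrnpf bKO, of which S100a8 (log2 fold change 1.53) and S100a9 (1.34) were called higher and the other 5 were not called, Adgre1 with the lowest value among them (-0.86). Transitional B cell markers, 3 genes, summed to 81.4 to 94.3 CPM in WT and 96.8 to 97.0 CPM in Hnrnpf bKO. Of these, Cd93, which the sort gate selects against, had a mean of 10.1 CPM in WT and 18.2 CPM in Hnrnpf bKO (adjusted p = 0.00661, edgeR), Sox4 was higher as well (log2 fold change 0.63, adjusted p = 0.0411, edgeR) and Vpreb3 was not called. Marginal zone B cell markers summed to 533.7 to 549.7 CPM in WT and 511.2 to 517.7 CPM in Hnrnpf bKO, with S1pr3 (log2 fold change -0.46) and Dtx1 (-0.23) called lower and Plac8 (0.26) higher among the 5. The summed levels in WT and Hnrnpf bKO were, for plasma cell markers, 253.2 to 268.1 and 241.4 to 250.5 CPM, for T cell markers, 25.7 to 37.2 and 21.98 to 30.93 CPM, and for dendritic cell markers, 5.13 to 6.40 and 5.20 to 5.61 CPM, with no gene of these lists called. No marker examined for other B cell stages, T cells, myeloid cells or dendritic cells was at 0 in every library. The part of these markers in the results below was not tested.

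The sequences just before the RefSeq starts of the genes were searched for short letter patterns. Those of the 4 genes that changed and of B2m are printed here. A RefSeq start can differ from the end of the gene span given below for each gene. The windows of H2-D1, H2-T23, Tapbp, Psmb8 and Psmb9 lie mostly or wholly inside those spans, so they need not be promoter sequence. RefSeq windows (GRCm38.p6) were found for 8 of the 10 genes, and Nlrc5 and Tap2 had no entry. Each run is the 250 bases before the annotated start, read 5′ to 3′ on the gene's strand, and capitals mark matches on either strand to 4 letter patterns: the NF-kB core GGGATTCCC, the interferon response core GAANNGAAA, the CRE core TGACG and the CCAAT box. The windows are chr17:34000348-34000597 on the minus strand for H2-K1, chr17:35262844-35263093 on the plus strand for H2-D1, chr17:36032702-36032951 on the minus strand for H2-T23, chr2:122147437-122147686 on the plus strand for B2m and chr17:34187306-34187555 on the plus strand for Tap1.
H2-K1: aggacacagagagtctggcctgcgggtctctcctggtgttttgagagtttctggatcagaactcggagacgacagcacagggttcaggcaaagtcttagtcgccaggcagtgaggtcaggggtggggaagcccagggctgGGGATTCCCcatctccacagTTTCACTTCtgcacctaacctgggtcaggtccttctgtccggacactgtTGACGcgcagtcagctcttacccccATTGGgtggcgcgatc
H2-D1: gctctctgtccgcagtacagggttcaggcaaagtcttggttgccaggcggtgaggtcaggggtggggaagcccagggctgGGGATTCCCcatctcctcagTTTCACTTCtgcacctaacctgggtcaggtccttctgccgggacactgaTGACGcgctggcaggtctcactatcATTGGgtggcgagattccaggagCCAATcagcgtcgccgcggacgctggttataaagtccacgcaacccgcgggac
H2-T23: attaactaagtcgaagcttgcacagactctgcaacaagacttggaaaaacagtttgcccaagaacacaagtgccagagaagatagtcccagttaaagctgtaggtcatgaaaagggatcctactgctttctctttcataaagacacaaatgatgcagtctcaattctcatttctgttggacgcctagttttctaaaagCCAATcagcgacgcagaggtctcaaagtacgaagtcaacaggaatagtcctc
B2m: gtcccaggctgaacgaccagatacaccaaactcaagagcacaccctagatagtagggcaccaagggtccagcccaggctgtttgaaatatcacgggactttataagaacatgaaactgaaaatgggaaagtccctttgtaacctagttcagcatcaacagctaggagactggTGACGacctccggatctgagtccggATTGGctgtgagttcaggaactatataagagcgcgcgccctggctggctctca
Tap1: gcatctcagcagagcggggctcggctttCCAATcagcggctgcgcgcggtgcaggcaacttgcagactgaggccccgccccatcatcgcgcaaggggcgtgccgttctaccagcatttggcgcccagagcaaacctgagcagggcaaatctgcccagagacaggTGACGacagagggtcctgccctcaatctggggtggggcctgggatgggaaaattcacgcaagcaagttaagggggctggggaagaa

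H2-K1 and H2-D1 held all 4 patterns in the same order. The NF-kB core lay 20 bases before the interferon response core in both, the CRE core followed 49 bases later, and the CCAAT box another 25 bases later. H2-D1 had a second CCAAT match nearer its start, at -53. Of 27025 RefSeq windows of this length, 0.315% held the NF-kB core, 6.35% the interferon response core, 17.8% the CRE core and 34.5% the CCAAT box. All 4 together were found in 3 windows, those of H2-K1, H2-D1 and the related heavy chain gene H2-Q7.

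The other genes held fewer of the patterns. H2-T23 had a CCAAT match at -52, and B2m had a CRE core at -78 followed by a CCAAT match at -53. Tap1 had a CCAAT match at -222 and a CRE core at -86, in a window that overlaps that of Psmb9 on the opposite strand (chr17:34187331-34187580), since both genes are read outward from a shared stretch. Tapbp had CCAAT matches at -248 and -165, and no pattern was found in the window of Psmb8. The Tapbp window begins at 33919228, inside a gene span that begins at 33915899. The Psmb8 window begins at 34197945, inside a span that begins at 34197721. Sequence before those spans was not searched. A match of letters is a description of the window and not a mapped binding site. Only these letters were searched for, so a window without a match may still hold another form of such an element.

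**Figure D1:**
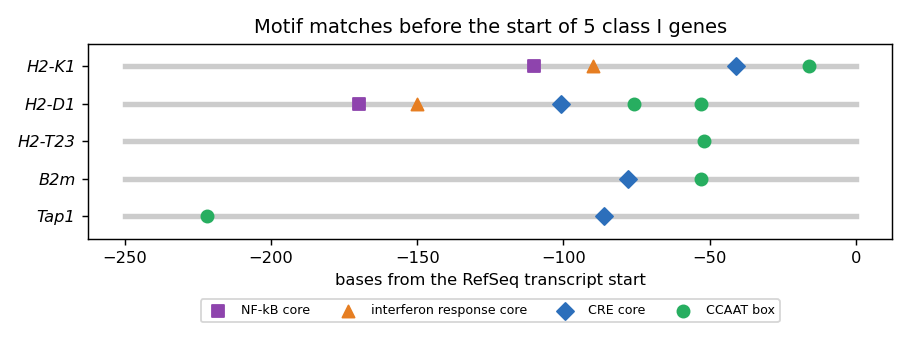
Positions of 4 letter patterns (coloured symbols) in the 250 bases before the RefSeq start of 5 class I genes; the x axis is the distance from the start in bases and each grey bar is 1 window. H2-K1 and H2-D1 carry the same 4 patterns at the same spacing of 20, 49 and 25 bases, shifted along the window. Of these patterns, H2-T23 matches only the CCAAT box.

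The classical heavy chains and B2m were among the most abundant transcripts of these cells. By FPKM, fragments scaled to the library total and to exonic length, a level that can be compared between genes, B2m ranked 16, H2-D1 24 and H2-K1 25 among the 14123 genes tested. H2-T23, a non-classical heavy chain that presents leader peptides to receptors of NK cells, ranked 137. The loading and processing genes were lower, from rank 370 for Tapbp to 1110 for Psmb9, and Nlrc5 ranked 2525.

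In WT cells the order of FPKM levels was B2m, H2-D1, H2-K1, H2-T23, Tapbp, Psmb8, Tap1, Tap2, Psmb9 and Nlrc5, with only the neighbours Psmb8 and Tap1 overlapping between libraries. In Hnrnpf bKO cells the order was the same except that H2-K1 stood above H2-D1, and these were the only neighbours that overlapped. The heavy chain order thus rested on levels of 970.3 ± 13.4 FPKM for H2-K1 and 1001 ± 27.1 FPKM for H2-D1 in WT, and of 1135 ± 36.9 FPKM and 1112 ± 39.3 FPKM in Hnrnpf bKO (SD, n = 2). The order depended on the length used. The exonic lengths behind the FPKM exceeded the longest coding transcript for 9 of the 10 genes, for example 2938 against 1619 bases for H2-K1, 2579 against 2102 for H2-D1 and 3660 against 1352 for Psmb9, and were equal to it, at 860 bases, for B2m. Scaled to those transcripts instead, a choice added after the values were seen, H2-K1 stood first in all 4 libraries, followed by B2m and H2-D1, and the order went on with H2-T23, Psmb8, Tap1, Tapbp, Psmb9, Tap2 and Nlrc5 in both genotypes. The comparison of a gene between the genotypes does not depend on this length.

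**Figure D2:**
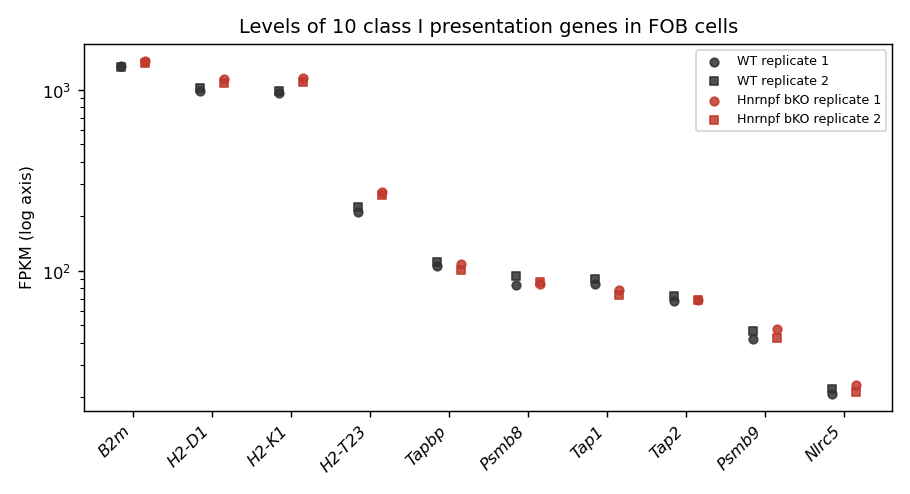
FPKM (log axis) of the 10 class I genes in the 2 WT libraries (black) and the 2 Hnrnpf bKO libraries (red), with circles for replicate 1 and squares for replicate 2, ordered by the WT mean. B2m, H2-D1 and H2-K1 lie close to 1000 FPKM or above it, and Nlrc5 lies lowest at 20.8 to 23.3 FPKM.

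Of the 10 genes, 3 rose in Hnrnpf bKO cells (H2-K1, H2-D1 and H2-T23), 1 fell (Tap1) and 6 did not pass the test. All changes were small, with log2 fold changes between -0.19 and 0.30, and 0 of the 10 reached a fold change of 2 in edgeR, where 4 had an unadjusted p under 0.05; 0 reached it in DESeq2. Among all genes tested, 6.97% were called in either direction, 4.15% higher and 2.83% lower, and 0.899% passed with a fold change of 2 or more. Counting error falls with depth, so the share was also taken over the 1356 genes with at least as many counts as the lowest of the 10, and there 10% were higher and 7.74% lower. All 4 calls were also made by DESeq2, and all 4 were lost in limma on log2 FPKM, which called 45 genes in the whole table. The libraries of the genotypes did not overlap in CPM for 5 of the 10 genes, against 50.1% of all genes tested and 65.9% of those at that depth. The median log2 fold change was 0.05 over the 10 genes and -0.0023 over all genes tested. Since bulk RNA was measured, more cells of a kind rich in a transcript and more transcript per cell cannot be told apart.

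H2-K1, the K locus heavy chain (ENSMUSG00000061232, chromosome 17, 33996017 to 34000347, minus strand), had 46182 and 54432 counts in WT against 53574 and 58910 in Hnrnpf bKO. Scaled to library size these were 2824 and 2861 CPM in WT against 3418 and 3289 CPM in Hnrnpf bKO. Both Hnrnpf bKO libraries thus lay above both WT libraries, and the gap between the genotypes was wider than the gap within either. The fitted difference was a rise of 17.9% (log2 fold change 0.24, SE 0.044, 95% interval 0.14 to 0.33, adjusted p = 0.00621, edgeR). Without Hnrnpf bKO replicate 1 the log2 fold change was 0.21 and the call was lost (adjusted p = 0.0959, edgeR).

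H2-D1, the D locus heavy chain (ENSMUSG00000073411, chromosome 17, 35262730 to 35267499, plus strand), had 41418 and 49737 counts in WT against 46138 and 50528 in Hnrnpf bKO. The scaled levels were 2533 and 2615 CPM in WT against 2943 and 2821 CPM in Hnrnpf bKO, again without overlap. The rise of 12.0% passed the threshold narrowly (log2 fold change 0.16, SE 0.046, 95% interval 0.065 to 0.26, adjusted p = 0.0492, edgeR). The call ended when WT replicate 1 (adjusted p = 0.0666), Hnrnpf bKO replicate 1 (0.354) or Hnrnpf bKO replicate 2 (0.13) was left out of the edgeR fit, with log2 fold changes of 0.14, 0.13 and 0.19.

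H2-T23 (ENSMUSG00000067212, chromosome 17, 36029773 to 36032855, minus strand), which encodes Qa-1, showed the largest rise of the 10 genes. Its counts were 9978 and 12216 in WT against 12286 and 13673 in Hnrnpf bKO, or 610.2 and 642.2 CPM against 783.8 and 763.3 CPM. The lower Hnrnpf bKO library stood well above the higher WT library. The rise was 23.5% (log2 fold change 0.30, SE 0.048, 95% interval 0.20 to 0.41, adjusted p = 0.00232, edgeR), and it passed the threshold whichever library was left out.

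Heavy chain genes resemble each other, and reads from one could be counted for another. The longest coding transcripts of H2-K1 and H2-D1 were 88.2% identical over 1513 aligned bases, and that of H2-T23 was 84.3% identical to H2-K1 over 978 bases. The highest identities were with H2-Q4, 91.4% for H2-K1 over 945 bases and 91.6% for H2-D1 over 940 bases. For H2-T23 it was 85.3% with H2-Q6 over 941 bases. Even so, no stretch of 150 bases, the length of a read, of the H2-K1 transcript was found in a transcript of another gene, and 1.79% of such stretches of H2-D1 and 0.831% of those of H2-T23 were. Only exact matches were counted, so sharing with mismatches was not measured. Counts of H2-K1 and H2-D1 added together, which do not depend on how reads were split between them, were higher in Hnrnpf bKO by a log2 fold change of 0.20 (SE 0.044, adjusted p = 0.0143, edgeR). Counts summed over 17 heavy chain genes, those listed here without H2-Q5, gave a log2 fold change of 0.19 (SE 0.044, adjusted p = 0.0223, edgeR). Most of that sum comes from H2-K1 and H2-D1, with mean counts of 53270 and 46960. It also holds H2-T23, H2-Q4 and H2-Q6, each called higher singly. The sum is therefore not separate support for a rise across the 17 genes.

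B2m, the light chain shared by all class I molecules (ENSMUSG00000060802, chromosome 2, 122147686 to 122153083, plus strand), had 18946 and 21670 counts in WT against 19530 and 21727 in Hnrnpf bKO. Its levels were 1159 and 1139 CPM in WT against 1246 and 1213 CPM in Hnrnpf bKO. The libraries did not overlap, but the difference did not pass the test (log2 fold change 0.098, SE 0.045, 95% interval -0.000242 to 0.196, adjusted p = 0.248, edgeR).

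Heavy chain level was also set against the light chain within each library. The ratio of summed H2-K1 and H2-D1 FPKM to B2m FPKM was 1.442 and 1.501 in WT against 1.59 and 1.57 in Hnrnpf bKO. Both Hnrnpf bKO ratios were above both WT ratios, with a difference of 0.10 on the log2 scale (two-sided exact permutation p = 0.333, the smallest that 2 against 2 libraries can give). The ratio of H2-K1 to H2-D1 FPKM, a ratio added after the values were seen, was 0.979 and 0.961 in WT against 1.02 and 1.02 in Hnrnpf bKO, a difference of 0.075 on the log2 scale (exact permutation p = 0.333).

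**Figure D3:**
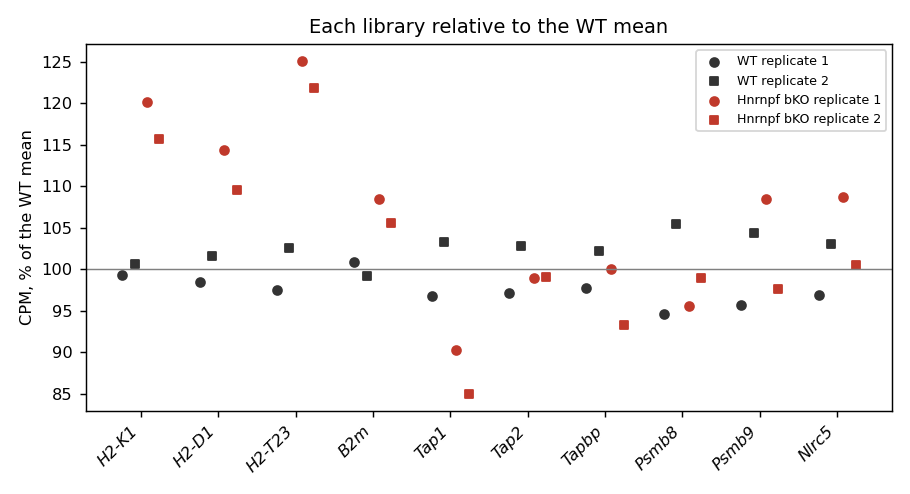
CPM of each of the 10 class I genes in each library as a percentage of the WT mean of that gene, with WT in black, Hnrnpf bKO in red, circles for replicate 1 and squares for replicate 2. Both red points lie above both black points for H2-K1, H2-D1, H2-T23 and B2m, below them for Tap1, and among or overlapping them for the other 5 genes.

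Tap1, the first half-transporter of the peptide pump (ENSMUSG00000037321, chromosome 17, 34187553 to 34197225, plus strand), moved against the heavy chains. It had 7528 and 9346 counts in WT against 6733 and 7239 in Hnrnpf bKO, or 460.3 and 491.3 CPM against 429.5 and 404.1 CPM. Both Hnrnpf bKO libraries were lower than both WT libraries. The fitted log2 fold change was -0.19 (SE 0.053, 95% interval -0.31 to -0.076, adjusted p = 0.0483, edgeR), a change of -12.4%. This call ended without WT replicate 2 (log2 fold change -0.14, adjusted p = 0.242), without Hnrnpf bKO replicate 1 (-0.23, 0.0613) and without Hnrnpf bKO replicate 2 (-0.15, 0.282) in edgeR.

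Tap2, the partner half-transporter (ENSMUSG00000024339, chromosome 17, 34203527 to 34216321, plus strand), had 4200 and 5172 counts in WT against 4099 and 4694 in Hnrnpf bKO. The Hnrnpf bKO libraries, at 261.5 and 262.0 CPM, lay between the WT libraries at 256.8 and 271.9 CPM. The log2 fold change was -0.015 (SE 0.051, 95% interval -0.13 to 0.097, adjusted p = 0.914, edgeR). The ratio of Tap1 to Tap2 FPKM, also added after the values were seen, was 1.24 and 1.25 in WT against 1.13 and 1.07 in Hnrnpf bKO (difference -0.18 on the log2 scale, exact permutation p = 0.333).

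Tapbp, which tethers the transporter to class I molecules awaiting a peptide (ENSMUSG00000024308, chromosome 17, 33915899 to 33929292, plus strand), had 6307 and 7672 counts in WT against 6182 and 6592 in Hnrnpf bKO. Its CPM of 385.7 and 403.3 in WT against 394.4 and 368.0 in Hnrnpf bKO overlapped. The log2 fold change was -0.05 (SE 0.053, 95% interval -0.16 to 0.064, adjusted p = 0.652, edgeR). Tapbp shares 8.73% of its stretches of read length with Gm19412, a gene on the opposite strand, and the library kit does not mark strand.

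The immunoproteasome subunits did not pass the test. Psmb8, which replaces Psmb5 in the inducible proteasome (ENSMUSG00000024338, chromosome 17, 34197721 to 34201454, plus strand), had 4632 and 6007 counts in WT against 4489 and 5307 in Hnrnpf bKO. In CPM the 4 libraries ran together, with 283.3 and 315.8 in WT against 286.4 and 296.3 in Hnrnpf bKO (log2 fold change -0.04, SE 0.058, 95% interval -0.17 to 0.085, adjusted p = 0.754, edgeR).

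Psmb9, which replaces Psmb6 (ENSMUSG00000096727, chromosome 17, 34181987 to 34187764, minus strand), had 2521 and 3202 counts in WT against 2742 and 2818 in Hnrnpf bKO. The levels overlapped at 154.2 and 168.3 CPM in WT against 174.9 and 157.3 CPM in Hnrnpf bKO (log2 fold change 0.041, SE 0.065, 95% interval -0.099 to 0.18, adjusted p = 0.777, edgeR). Its 5′ end overlaps that of Tap1, with which it shares 5.24% of its stretches of read length, so a small part of its counts cannot be assigned to either gene.

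The exchange between inducible and constitutive subunits was read as a ratio of FPKM in each library. Psmb8 over Psmb5 was 1.31 and 1.47 in WT against 1.28 and 1.33 in Hnrnpf bKO (exact permutation p = 0.667), and Psmb9 over Psmb6 was 1.08 and 1.16 in WT against 1.14 and 1.09 in Hnrnpf bKO (exact permutation p = 1). Both ratios overlapped between the genotypes. Psmb10 over Psmb7 was 6.04 and 6.40 in WT against 5.61 and 5.85 in Hnrnpf bKO, lower in both Hnrnpf bKO libraries by 0.12 on the log2 scale (exact permutation p = 0.333).

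Nlrc5, the class I transactivator (ENSMUSG00000074151, chromosome 8, 94434356 to 94527272, plus strand), had 2893 and 3579 counts in WT against 3110 and 3286 in Hnrnpf bKO. Its levels of 176.9 and 188.1 CPM in WT against 198.4 and 183.4 CPM in Hnrnpf bKO overlapped. The log2 fold change was 0.064 (SE 0.058, 95% interval -0.062 to 0.19, adjusted p = 0.598, edgeR). A change of the size fitted for H2-K1 lies outside the interval and one of the size fitted for H2-D1 lies inside it. Whether Nlrc5 had a part in the heavy chain changes was not tested.

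**Figure D4:**
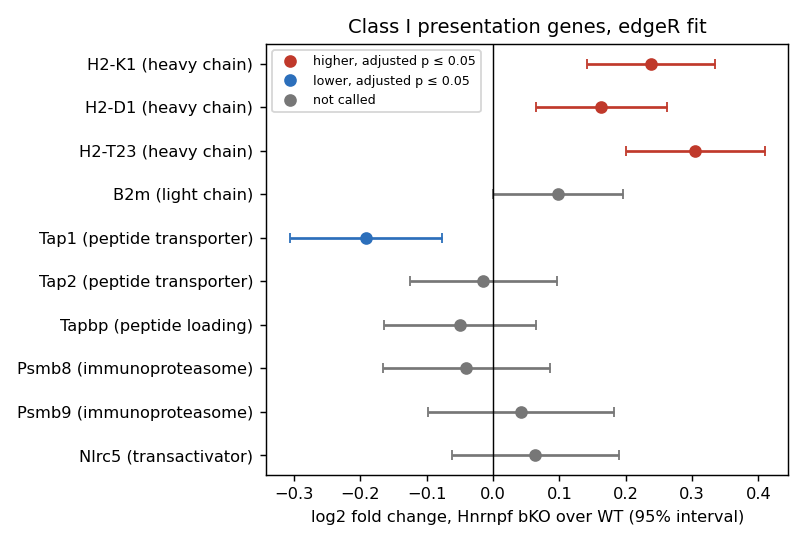
Log2 fold change of Hnrnpf bKO over WT with its 95% interval for the 10 class I genes, from the edgeR fit on all 4 libraries (2 of each genotype); red marks genes called higher, blue genes called lower and grey genes not called at an adjusted p of 0.05. The 3 heavy chains lie to the right of 0, Tap1 to the left, and the interval of each other gene spans 0.

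The deposited splicing table lists 1556 events in 1173 genes that the authors called as different between the genotypes. Of the 10 class I genes only Nlrc5 was listed, with 1 event of mutually exclusive exons, a type with 46 events in the table. Among all genes tested, 8.22% had an event listed, and among the 3970 with a mean of at least 1000 counts, a level that all 10 genes exceed, 12.9% did. Genes of the related lists described next that had skipped exon events were H2-Q7, with 2, and Ciita, Mx1, Nfyc and Tyk2, with 1 each.

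A list of other heavy chain and class I-like genes gave 10 testable genes of 16 listed, of which 3 rose, 1 fell and 6 did not pass, with a median log2 fold change of 0.12. Of all genes tested, 4.15% rose and 2.83% fell, and at the depth of the 10 class I genes 10% rose and 7.74% fell. H2-Q4, a non-classical heavy chain, had 8755 and 10581 counts in WT against 10545 and 11158 in Hnrnpf bKO (log2 fold change 0.25, SE 0.052, adjusted p = 0.0125, edgeR). H2-Q6, a neighbouring Q region heavy chain, rose by a log2 fold change of 0.20 (SE 0.047, adjusted p = 0.0229, edgeR), and Cd1d1, which presents lipids to NKT cells, by 0.34 (SE 0.076, adjusted p = 0.0163, edgeR). H2-T24, a T region heavy chain, went the other way, with 1844 and 2148 counts in WT against 1494 and 1613 in Hnrnpf bKO (log2 fold change -0.28, SE 0.059, adjusted p = 0.0118, edgeR). In edgeR, the call of H2-Q4 was lost without Hnrnpf bKO replicate 1 (adjusted p = 0.12), that of H2-Q6 without WT replicate 1 (0.0536) or Hnrnpf bKO replicate 1 (0.185), and that of Cd1d1 without WT replicate 1 (0.0803). H2-Q5, a Q region heavy chain that was not listed and is named after its values were seen, was also called higher (log2 fold change 0.20, adjusted p = 0.0271, edgeR). The T region thus held H2-T23, which rose, and H2-T24, which fell. H2-T10 (log2 fold change -0.099, SE 0.061) and H2-T22 (-0.13, SE 0.073), also of the T region, were not called. How many reads the H2-Q genes share with each other was not measured.

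Among 11 other genes of peptide loading and trimming in the endoplasmic reticulum, 0 rose, 1 fell and 10 did not pass, with a median log2 fold change of -0.078. Over all genes tested 4.15% rose and 2.83% fell, and 7.74% fell at the depth of the 10 class I genes. Not every gene of this list reaches that depth, and 1 call among 11 is not a result about the list. The gene that fell was Tapbpl, the tapasin-related peptide editor TAPBPR, with 1140 and 1386 counts in WT against 938 and 1070 in Hnrnpf bKO (log2 fold change -0.25, SE 0.069, adjusted p = 0.0443, edgeR). This call was lost whichever library was left out, with adjusted p from 0.0503 to 0.168 in edgeR. In DESeq2 0 genes of this list passed, with 2 at an unadjusted p under 0.05. In edgeR 4 genes of the list had an unadjusted p under 0.05.

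Of 9 other proteasome genes, 0 passed in edgeR or DESeq2, and 0 had an unadjusted p under 0.05 in either. The log2 fold changes were -0.01 for Psmb10 (SE 0.063), the last inducible catalytic subunit, and 0.049 for Psmb5 (SE 0.072), 0.052 for Psmb6 (SE 0.067) and 0.11 for Psmb7 (SE 0.081), the constitutive ones. Of 6 further peptidases tested, most of them cytosolic enzymes that trim or destroy peptides, 0 passed in edgeR, with 1 at an unadjusted p under 0.05, and 0 in DESeq2. With 6.97% of all genes tested called in either direction, lists this short can lack a call at the same share. The most abundant of these were Lnpep, a membrane-bound aminopeptidase of endosomes, and Tpp2, a cytosolic one, with log2 fold changes of -0.12 (SE 0.055) and -0.089 (SE 0.064).

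Of 19 transcription factors that act on class I genes, 1 rose, 0 fell and 18 did not pass, and the median log2 fold change was -0.035. The shares over all genes tested were 4.15% higher and 2.83% lower, so 1 call among 19 is near the background. The gene that rose was Stat2, a subunit of the interferon-activated complex ISGF3, with 3285 and 3741 counts in WT against 3538 and 4303 in Hnrnpf bKO (log2 fold change 0.23, SE 0.053, adjusted p = 0.0207, edgeR). DESeq2 also called Stat2 (adjusted p = 0.024), and its edgeR call was lost without WT replicate 2 (adjusted p = 0.0751) or Hnrnpf bKO replicate 2 (0.128). At an unadjusted p under 0.05, edgeR gave 4 of the 19 factors.

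Interferon-stimulated genes were listed because interferon raises class I genes in most cells. Of the 25, 4 rose, 0 fell and 21 did not pass in edgeR, and DESeq2 called 3. The median log2 fold change was 0.054. The guanylate-binding GTPase Gbp7 rose most clearly, with 511 and 541 counts in WT against 763 and 774 in Hnrnpf bKO (log2 fold change 0.62, SE 0.092, adjusted p = 0.0014, edgeR). Gbp3, of the same family, had a log2 fold change of 0.39 (SE 0.065, adjusted p = 0.00328, edgeR), Oas1a, a sensor of double-stranded RNA, 0.54 (SE 0.13, adjusted p = 0.0254, edgeR), and Ifi27l2a 0.34 (SE 0.070, adjusted p = 0.0106, edgeR). Among 9 interferon receptor, JAK and SOCS genes, 0 rose and 1 fell, the receptor-bound kinase Tyk2, with 2777 and 3377 counts in WT against 2308 and 2702 in Hnrnpf bKO (log2 fold change -0.22, SE 0.054, adjusted p = 0.0257, edgeR). DESeq2 called 0 of these 9, with 1 at an unadjusted p under 0.05. In edgeR, the call of Oas1a was lost without WT replicate 1 (adjusted p = 0.0875) or Hnrnpf bKO replicate 1 (0.165), that of Ifi27l2a without WT replicate 1 (0.0553), and that of Tyk2 without WT replicate 2 (0.156) or Hnrnpf bKO replicate 1 (0.127). Over all 7 related lists, with each gene counted once, 8 of 87 tested genes rose and 3 fell, where 4.15% of all genes tested rose and 2.83% fell. Of the genes counted at least as deeply as the lowest of the 10 class I genes, 10% rose and 7.74% fell. Not all of the listed genes reach that depth.

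**Figure D5:**
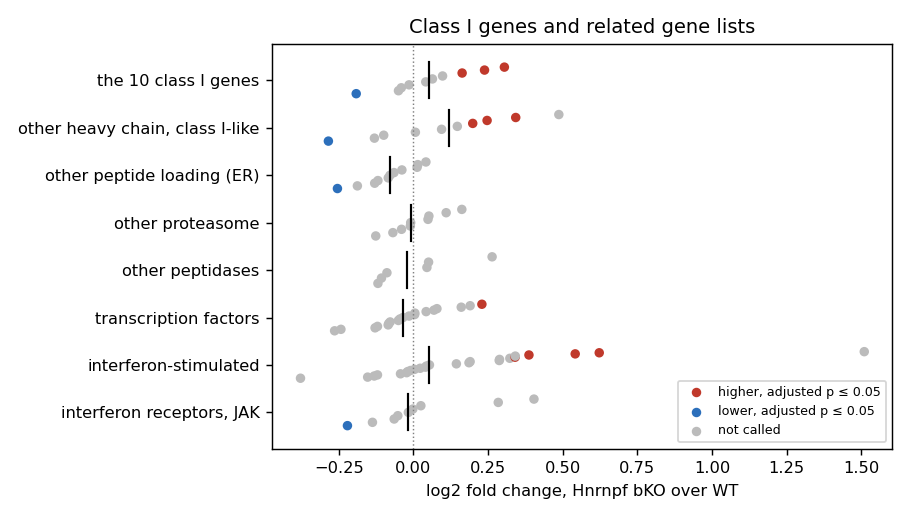
Log2 fold change of Hnrnpf bKO over WT for the 10 class I genes and 7 related gene lists (1 point per tested gene, black bar at the list median; red called higher, blue called lower, grey not called at an adjusted p of 0.05, edgeR, 2 libraries per genotype). The medians run from -0.078 for other peptide loading genes to 0.12 for other heavy chain and class I-like genes, and calls in both directions occur in the class I genes and in the other heavy chains.

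Of the 10 genes, 8 lie in the MHC region of chromosome 17, between the start of Tapbp at 33915899 and the end of H2-T23 at 36032855, with B2m and Nlrc5 elsewhere. This stretch was examined after the values were known. Of the 110 other tested genes in it, 10 were higher and 10 lower, 18.2% in all against 6.97% of all genes tested, with a median log2 fold change of 0.0043. At the depth of the 10 class I genes, 8 of 27 other genes of the stretch were called, against 17.8% of all genes at that depth. The heavy chains H2-Q4, H2-Q5 and H2-Q6, described above, are among these 8. Together with H2-T24 they are also among the genes called in the whole stretch. The largest falls there were those of C4a (log2 fold change -1.54) and Msh5 (-1.03). The cytokine genes Tnf (-0.66), Lta (-0.47) and Ltb (-0.25) also fell. The largest rises were those of Atp6v1g2 (0.55) and H2-Ke6 (0.52). Ring1, a Polycomb protein (0.35), and Vars, a tRNA synthetase (0.24), also rose.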

How the data were processed

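RNA was extracted from sorted FOB cells, poly(A) libraries were made with the NEBNext Ultra kit and paired 150-base reads were sequenced. Per the labels and methods of the study, the authors trimmed reads with Cutadapt 1.9.1, aligned them to GRCm38 with HISAT2 2.0.1 and counted them per gene with HTSeq 0.6.1. The deposited gene table holds raw read counts per gene and library, and FPKM values that the authors scaled by exonic size. The strand setting and the handling of reads that match several genes were not given in the sources used here. The deposited splicing table lists significant rMATS events with the authors' own FDR and inclusion differences; these were not used, only which genes and event types are listed.

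Counts were tested with edgeR 4.0.16 (R 4.3.3): TMM scaling (factors 0.992 to 1.01), filterByExpr, quasi-likelihood test, Benjamini-Hochberg adjustment over 14123 genes, called at 0.05. The common dispersion gave a biological coefficient of variation of 5.90%. Alternatives were DESeq2 1.42.0, limma 3.58.1 on log2(FPKM + 0.1) and log2(FPKM + 1), RLE size factors, no filter or at least 10 counts in every library, other thresholds, each library left out and a replicate block. Leaving 1 library out leaves a lone sample in its genotype, which is assumed to vary like the other. Single ratios had an exact permutation test. The fitting script was tested on simulated data. Transcript identity was taken with blastn 2.17.0 on GENCODE transcripts.

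All 10 class I genes are named. Of each related list, the genes called are named, at most 4, or else the 2 with the highest mean count, and Psmb5, Psmb6, Psmb7 and Psmb10 always. The members and lists were chosen with earlier results of these data known. One gene listed among the peptidases, Nrdc, was not found by that symbol. Replicate numbers were shared by the genotypes, but same-numbered libraries did not deviate together. Values of some single genes are not reported here.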

Additional observations from a re-analysis of the deposited data

How the results depend on the processing

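The count of all genes called (985) became 620 with DESeq2, 612 with a replicate block, 45 with limma on log2(FPKM + 0.1), 41 on log2(FPKM + 1) and 1 on log2(FPKM + 0.1) without the filter. Of the 10 class I genes, 4 were called, and 4 with DESeq2. This became 2 with the replicate block, 2 at an adjusted p of 0.01, 1 to 3 when 1 library was left out (1 without Hnrnpf bKO replicate 1, 2 without Hnrnpf bKO replicate 2) and 0 in each of the 3 limma fits, where 4, 4 and 3 of them had an unadjusted p under 0.05. H2-K1 and H2-T23 were the 2 that passed with the block. The cause of the lower limma counts was not tested. Over all alternatives the log2 fold change ran from 0.21 to 0.27 for H2-K1, 0.13 to 0.19 for H2-D1, 0.27 to 0.35 for H2-T23 and -0.24 to -0.14 for Tap1. The 11 calls in the related lists became 5 with the block, 0 in each limma fit and 6 to 13 when 1 library was left out. The 4 interferon-stimulated calls ran from 2 (without WT replicate 1) to 8 (without WT replicate 2), and the 4 in other heavy chains fell to 2 without WT replicate 1 or Hnrnpf bKO replicate 1. Among the genes named from these lists, H2-T24, Gbp3 and Gbp7 passed whichever library was left out. With 1 library left out, log2 fold changes changed sign for Tap2 (-0.054 to 0.031), Psmb8 (-0.12 to 0.044) and Psmb9 (-0.035 to 0.12), none of them called. Same-numbered libraries share only a number: their deviations had a correlation of -0.083 over 9875 genes. With 2 libraries per genotype, a change as small as that of H2-D1 or Tap1 lies at the limit of what could be called.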
